A study of Homo sapiens with 12 samples.

Results

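The amino acid transporter families examined here comprised the genes of solute carrier families SLC1, SLC3, SLC6, SLC7, SLC36, SLC38 and SLC43. They were chosen by symbol, and 59 of the 35337 rows of the expression table matched. Expression was profiled in EndoC-βH3, a human beta-like cell line derived from fetal pancreas, by a method that reads transcripts at their 3′ end. The 6 senescent samples came from cells in which 3 weeks of 4-hydroxy tamoxifen had activated the CreER recombinase that the line carries, so that its immortalizing hTERT and SV40 Large T-antigen genes were removed. The 6 non-senescent samples were labelled control and still carried both genes. The labels gave the same genotype, WT, to both groups. The question was which transporter genes changed upon senescence. Because all samples were of 1 line and the groups differed in drug exposure and in the presence of both transgenes, these effects cannot be told apart from senescence itself.

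Amino acid transporters move their substrates across the plasma membrane and the membranes of lysosomes and vesicles. Some are exchangers, in which an amino acid leaves the cell as another enters, while others couple uptake to the gradients of sodium or protons. Heteromeric transporters pair a heavy chain of the SLC3 family, which brings the complex to the surface, with a light chain of the SLC7 family, which carries the substrate. In beta cells, transported amino acids serve as fuel, as stimuli of insulin secretion and as signals to the kinase complex mTORC1. Some members of the same families carry other substrates, such as creatine, monoamines or nucleobases.

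Libraries held 8873569 to 17106776 reads in batch A (2 per group) and 4672924 to 7063264 in batch B (4 per group), so counting error of low genes was smaller in A, which had fewer replicates. The leading principal component (57.6% of the variance) separated the batches and the next (19.3%) the groups. CDKN1A, the p53 target that encodes p21, rose (log2 fold change 3.92), and MKI67, a marker of proliferating cells, fell (−2.83). The summed beta-cell markers (6 genes, 4 higher and 0 lower) ranged from 18479 to 43547 normalised read counts in non-senescent libraries. In senescent libraries the sum ranged from 60142 to 202506. Log2 fold changes of the 6 genes lay between −0.37 and 2.36, so the rise was not shared by all. For 2 of them the change differed between batches. Markers of delta and alpha cells were also present in these cells labelled as beta cells. The PP-cell marker PPY reached at most 2.75 in non-senescent and 0 in senescent libraries. The summed delta-cell markers (3 genes, all 3 lower, including the hormone gene SST) ranged from 159957 to 287949.6 and from 115196 to 142740.1, and the alpha-cell markers (3 genes, 1 lower, the hormone gene GCG) from 3869 to 9761 and from 2273 to 5515. The summed duct markers (2 genes) were between 236 and 379 in non-senescent and between 77.7 and 158 in senescent libraries. The summed acinar markers (4 genes) were between 33.9 and 58.4 and between 144 and 251. Only 1 gene of each of these lists averaged at least 5 normalised read counts and was tested. The duct gene was lower (log2 fold change −1.35) and the acinar gene higher (2.25). Mesenchymal, immune and endothelial sums reached at most 126 in any library, with PDGFRB and VWF at 0 throughout. The part of these marker changes in the transporter results was not tested.

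Of the 59 transporter genes, 55 had reads and 4 (SLC1A7, SLC6A7, SLC7A13 and SLC38A5) were not detected in any library. At these depths, no reads allows for up to 3 reads per library, or 0.175 to 0.642 ppm. Of the 55, 40 averaged at least 5 normalised read counts and were tested among 13847 genes. Calls needed an adjusted p under 0.1 (limma with batch in the model, Benjamini-Hochberg) and a fold change over 1.5. The scale was log2(normalised read count + 1), where the added 1 shrinks changes of low genes. Changes of low genes were still not all smaller here than in count models. That of SLC6A19 was 1.90 here, 1.42 with edgeR and 1.67 with DESeq2, and that of SLC1A5 was −1.51, −1.53 and −1.59. Of the 40, 12 were called, 8 higher and 4 lower in senescent cells. This was 30.0% of the tested members, beside 23.4% of all tested genes, of which 11.6% were called higher and 11.8% lower. No test of that difference in share was made. The median log2 fold change was 0.11 in the members and 0.01 in all tested genes. In 9 members the groups did not overlap within either batch and moved in 1 direction, 6 of them upward and 3 downward, beside 23.8% of all tested genes. In bulk samples, a lower value can reflect fewer cells that express a gene or less RNA per cell, and these cannot be told apart.

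**Figure D1:**
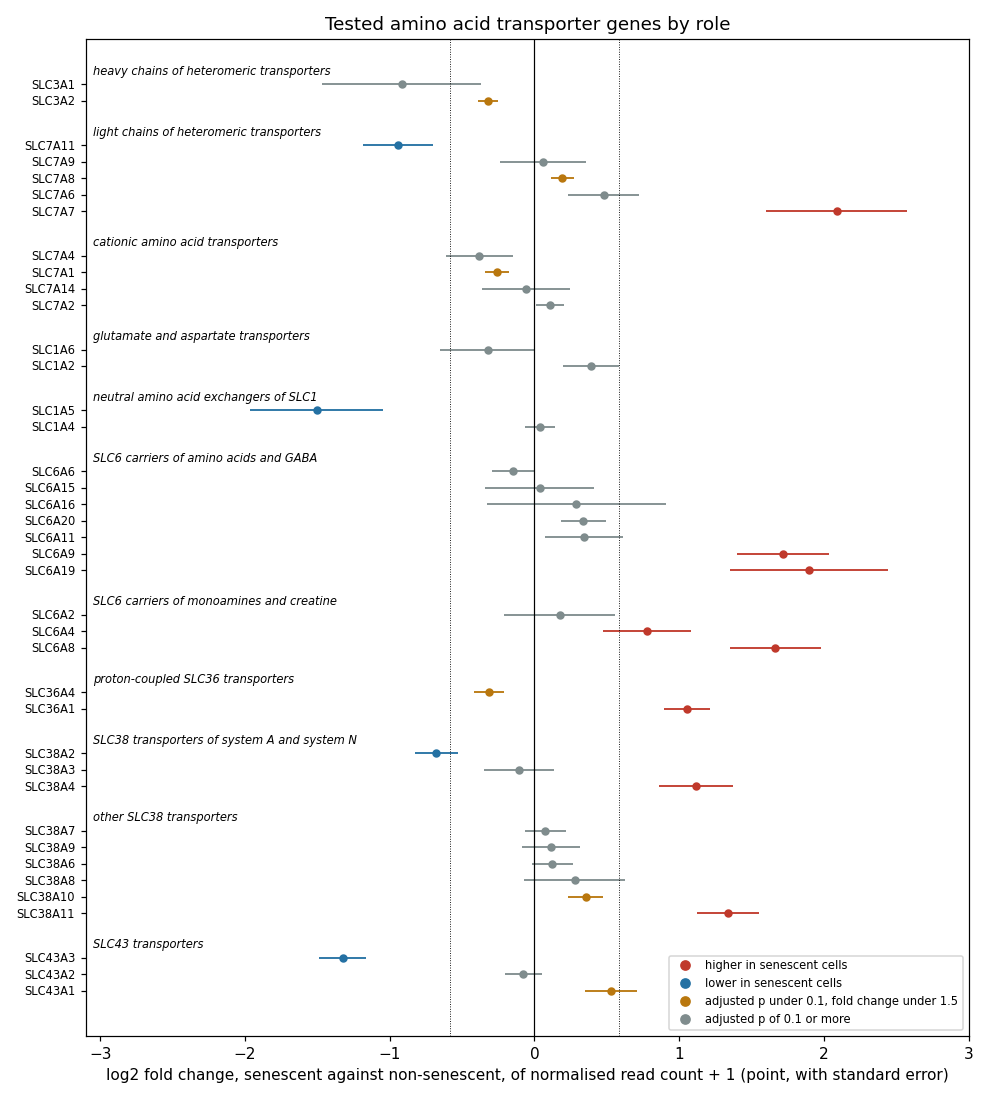
Log2 fold change (senescent against non-senescent) with its standard error for the tested transporter genes reported here, grouped by role, n = 6 libraries per group. Dotted lines mark a fold change of 1.5 in either direction. The 12 called genes lie between −1.51 (SLC1A5) and 2.09 (SLC7A7), and most other members lie near 0.

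The called genes belonged to 6 of the 7 families. SLC6 genes held 4 of the 8 rises and no fall among 11 tested members. SLC7 held 1 rise and 1 fall among 9, SLC38 held 2 rises and 1 fall among 9, SLC36 held 1 rise among 2, SLC1 held 1 fall among 4 and SLC43 held 1 fall among 3. Neither SLC3 gene was called. Beside these counts, 11.6% of all tested genes were called higher and 11.8% lower. Families with so few tested members cannot be set apart by such counts. Of the 12 called genes, 3 are known for substrates other than amino acids, namely SLC6A8, SLC6A4 and SLC43A3. Uncalled tested members (28 genes) lay between −0.92 and 0.53, and 6 of them had an adjusted p under 0.1 with a fold change under 1.5.

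The heavy chain SLC3A2 (also called CD98), partner of most SLC7 light chains, was slightly lower in senescent cells. It had 1370.0 and 1247 normalised read counts in the non-senescent libraries of batch A and 1099, 1187, 1128 and 1133 in those of batch B. Senescent libraries had 1000.2 and 1117 in batch A and 911, 794, 961 and 968 in batch B. Groups did not overlap within either batch, but the change was only −0.32 on the log2 scale (SE 0.07, adjusted p = 0.00123), a fold below the 1.5 limit. The other heavy chain, SLC3A1, which pairs with SLC7A9 to import cystine and cationic amino acids in kidney and intestine, had 2 to 28 reads in 11 libraries and none in 1 (log2 fold change −0.92, SE 0.55, adjusted p = 0.203). Its values differed in sign between the batches (0.46 in A and −1.61 in B). That difference did not pass the test of batch by group interaction (adjusted p = 0.388).

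Among the light chains, SLC7A11 and SLC7A7 changed in opposite directions. SLC7A11 (chr4:138164097-138242349, minus strand, GRCh38), the cystine-glutamate exchanger that supplies cysteine for glutathione, had 47.8 and 51.7 normalised read counts in non-senescent libraries of batch A and 31.6, 48.2, 30.7 and 44.7 in batch B. Senescent libraries had 13.5 and 18.1 in batch A and 30.3, 15.7, 26.3 and 28.6 in batch B. All senescent libraries were below all non-senescent ones, although in batch B the nearest pair was 30.3 against 30.7. SLC7A11 fell by 0.94 on the log2 scale (SE 0.24, adjusted p = 0.0049). The change was −1.61 within batch A and −0.61 within batch B, and batch B alone did not pass the threshold (adjusted p = 0.133). The difference between batches did not pass the interaction test (adjusted p = 0.316).

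SLC7A7 (chr14:22773222-22829820, minus strand), which encodes the light chain y+LAT1 that exports cationic amino acids in exchange for neutral ones, showed the largest rise of the tested members but from few reads. The non-senescent libraries held 4 and 3 reads in batch A and 0, 2, 1 and 7 in batch B. The senescent libraries held 11 and 11 reads in batch A and 13, 16, 16 and 17 in batch B. Normalised values were 2.92 ± 2.99 (SD, n = 6) and 13.9 ± 6.59 (SD, n = 6), without overlap in either batch, a rise of 2.09 on the log2 scale (SE 0.49, adjusted p = 0.00256; 1.03 in A and 2.62 in B). Of the remaining light chains, SLC7A8 (LAT2), an exchanger of neutral amino acids, changed by 0.19 (SE 0.08, adjusted p = 0.0606, fold 1.14), and SLC7A6 (y+LAT2) had a log2 difference of 0.48 that did not pass the test (adjusted p = 0.138). Its neighbour on the opposite strand, SLC7A6OS, had a log2 difference of −0.16 (adjusted p = 0.485), and whether counting used strand is not given in the sources used here. SLC7A5 (LAT1), the importer of leucine and other large neutral amino acids, was below the filter, with 33 reads over all non-senescent and 12 over all senescent libraries. The transcript annotation is not given in the sources used here, and whether all reads from the 3′ end of SLC7A5 were counted was not tested, so its low count may not give its expression level. SLC7A5P1, a copy of SLC7A5 in the genome, was listed without reads.

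Among the cationic transporters, which carry arginine and lysine as single chains, none was called. SLC7A1 (CAT1) had 913 and 870.2 normalised read counts in the non-senescent libraries of batch A and 751 and 734 in the senescent ones. In batch B, non-senescent values were 506, 504, 536 and 405 and senescent values were 429, 372, 378 and 453. The groups overlapped in batch B, and SLC7A1 changed by −0.26 on the log2 scale (SE 0.08, adjusted p = 0.0212). SLC7A2 (CAT2) had 0.11 (adjusted p = 0.401), with a 95% interval from −0.08 to 0.30.

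The promoters of SLC3A2, SLC7A1, SLC7A7 and SLC1A5 are shown because these 4 genes had an adjusted p under 0.1 and a match to an element known from genes of amino acid transport. Both strands of 250 bases before to 50 bases after each start (RefSeq, GRCh38.p14) were searched for TGATGNAAN, the form of the C/EBP-ATF response element to which ATF4 binds, and for TGACNNNGC, the core of the antioxidant response element. Capitals mark the matches, and each sequence is written along the strand of its gene. By the GENCODE 44 positions, the windows shown for SLC3A2, SLC7A7 and SLC1A5 lie inside the gene, so their starts are not its outermost ones.
SLC3A2, chr11:62881449-62881748, plus strand: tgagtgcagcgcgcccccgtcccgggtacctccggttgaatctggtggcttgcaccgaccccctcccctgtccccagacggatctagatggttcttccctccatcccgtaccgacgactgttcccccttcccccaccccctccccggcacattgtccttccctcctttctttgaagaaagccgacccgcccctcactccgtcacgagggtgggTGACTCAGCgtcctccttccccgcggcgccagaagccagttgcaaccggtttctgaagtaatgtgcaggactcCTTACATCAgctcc
SLC7A1, chr13:29595639-29595938, minus strand: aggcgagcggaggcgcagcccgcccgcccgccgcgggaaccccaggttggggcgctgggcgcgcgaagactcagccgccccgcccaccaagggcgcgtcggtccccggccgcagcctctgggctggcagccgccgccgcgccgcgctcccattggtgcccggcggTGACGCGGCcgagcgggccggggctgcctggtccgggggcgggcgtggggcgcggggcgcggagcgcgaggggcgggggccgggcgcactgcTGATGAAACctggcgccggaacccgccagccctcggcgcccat
SLC7A7, chr14:22819742-22820041, minus strand: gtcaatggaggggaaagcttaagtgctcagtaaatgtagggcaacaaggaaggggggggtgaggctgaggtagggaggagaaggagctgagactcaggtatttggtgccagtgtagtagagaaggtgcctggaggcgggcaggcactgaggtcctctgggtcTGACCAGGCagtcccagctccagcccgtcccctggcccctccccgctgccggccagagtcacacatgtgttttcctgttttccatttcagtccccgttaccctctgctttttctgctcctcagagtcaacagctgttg
SLC1A5, chr19:46787244-46787543, minus strand: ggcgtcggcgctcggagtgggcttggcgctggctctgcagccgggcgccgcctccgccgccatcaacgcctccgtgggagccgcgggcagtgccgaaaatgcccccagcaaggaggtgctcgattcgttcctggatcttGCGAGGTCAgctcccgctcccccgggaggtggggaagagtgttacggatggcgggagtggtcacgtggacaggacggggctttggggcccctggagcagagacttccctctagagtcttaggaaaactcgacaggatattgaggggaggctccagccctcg
SLC1A5, another start, chr19:46784765-46785064, minus strand: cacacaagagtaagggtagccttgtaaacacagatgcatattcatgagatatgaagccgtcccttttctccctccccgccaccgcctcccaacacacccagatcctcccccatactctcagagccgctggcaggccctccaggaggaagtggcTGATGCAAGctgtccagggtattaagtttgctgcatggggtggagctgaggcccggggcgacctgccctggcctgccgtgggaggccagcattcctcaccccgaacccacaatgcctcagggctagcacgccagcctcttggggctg
The SLC3A2 promoter held TGACTCAGC at 37 bases before the start and, on the opposite strand, TGATGTAAG after it. The SLC7A1 promoter held TGACGCGGC at 85 bases before the start and TGATGAAAC just after it, and the SLC7A7 promoter held TGACCAGGC at 88 bases before the start. Of the SLC1A5 promoters, 1 held TGACCTCGC on the opposite strand at 111 bases before its start and another held TGATGCAAG at 97 bases before its start. SLC1A3, SLC1A4, SLC7A5, SLC7A6 and SLC38A1 also held a match, but their adjusted p was over 0.1 or they were not tested. Over 66 promoters of the 44 members with a sequence, 6 held TGATGNAAN (9.09%) and 7 held TGACNNNGC (10.6%), beside 3.61% and 13.3% of all 35116 promoters. Of the 15 promoters of 10 called members, 1 held the former and 2 the latter. A match describes the letters in this window and is not evidence of binding.

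In the SLC1 family, SLC1A5 (ASCT2), a sodium-dependent exchanger that imports glutamine, was lower in senescent cells at very low counts. SLC1A5 (chr19:46774883-46788594, minus strand) had 6 and 6 reads in the non-senescent libraries of batch A and 4, 7, 9 and 8 in those of batch B. The senescent libraries held 8 and 0 reads in batch A and 1, 1, 3 and 4 in batch B. After scaling for depth, the groups overlapped in batch A and not in batch B, and SLC1A5 fell by 1.51 on the log2 scale (SE 0.46, adjusted p = 0.0157). Batch A alone did not pass the threshold (−1.22, adjusted p = 0.25). As for SLC7A5, whether all reads from its 3′ end were counted was not tested, and the 57 reads in all leave the fall resting on few counts. The related SLC1A4 (ASCT1), an exchanger of alanine, serine and cysteine, had 466 ± 200.3 (SD, n = 6) and 466 ± 159.8 (SD, n = 6) normalised read counts, with a log2 difference of 0.04 and a 95% interval from −0.17 to 0.24. These SDs span both batches, whose means were 720 in A and 338 in B in non-senescent and 659 and 370 in senescent cells. Of the glutamate transporters, SLC1A2 had a log2 difference of 0.39 (adjusted p = 0.122) and SLC1A6 of −0.32 (adjusted p = 0.464), neither past the test.

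In the SLC6 family of sodium- and chloride-dependent carriers, SLC6A9, SLC6A8, SLC6A19 and SLC6A4 were called higher. None of the 11 tested members was called lower, beside 11.8% of all tested genes, so the absence of falls among so few says little. SLC6A9 (chr1:43991500-44031467, minus strand), the glycine transporter GlyT1, had 50.0 and 35.0 normalised read counts in non-senescent libraries of batch A and 6.02, 26.2, 8.77 and 14.9 in batch B. Senescent libraries had 68.2 and 82.7 in batch A and 66.7, 56.7, 41.2 and 71.0 in batch B. Every senescent library of a batch was above every non-senescent library of that batch, and the rise over both was 1.72 on the log2 scale (SE 0.32, adjusted p = 0.000356; 0.83 in A and 2.16 in B).

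SLC6A8 (chrX:153687926-153696588, plus strand), which imports creatine, had 30.0 and 15.1 normalised read counts in non-senescent libraries of batch A, and 12, 5.51, 2.92 and 14.9 in batch B. Senescent libraries had 73.2 and 74.9 in batch A and 31.5, 25.2, 21.7 and 23.7 in batch B. The groups did not overlap within either batch, and the rise was alike in both (1.75 in A and 1.62 in B; log2 fold change 1.66, SE 0.32, adjusted p = 0.000457). A near-identical copy, SLC6A10P, was listed without reads, and how reads were divided between these copies is uncertain.

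The other SLC6 rises were less uniform between batches. SLC6A19 (chr5:1201595-1225111, plus strand), the neutral amino acid transporter B0AT1 of gut and kidney, had 13 and 19 reads in non-senescent and 25 and 20 in senescent libraries of batch A. In batch B the non-senescent libraries held 0, 0, 2 and 3 reads and the senescent ones 17, 7, 10 and 14. Over both batches it rose by 1.90 on the log2 scale (SE 0.55, adjusted p = 0.0106), with 0.14 in A, where the groups overlapped after scaling, and 2.78 in B, where they did not, a difference between batches that did not pass the interaction test (adjusted p = 0.194). Batch A alone did not pass the threshold (adjusted p = 0.814). CLTRN, a surface partner of B0AT1, was below the filter with 4.75 ± 3.5 (SD, n = 6) and 4.86 ± 6.17 (SD, n = 6).

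SLC6A4 (chr17:30194319-30236002, minus strand), the serotonin transporter, was called at 0.78 on the log2 scale (SE 0.31, adjusted p = 0.0536). Normalised values in batch A were 34.5 and 25.4 in non-senescent and 101 and 121 in senescent libraries. In batch B they were 88.8, 37.2, 99.4 and 62.1 in non-senescent and 105, 81.9, 102 and 44.8 in senescent libraries. The groups were far apart in batch A (1.86) and overlapped in batch B (0.23, adjusted p = 0.67). This difference between batches did not pass the interaction test (adjusted p = 0.136). The call was lost without non-senescent A1, A2 or B2 or without senescent A1 or A2 (adjusted p from 0.113 to 0.145). The other SLC6 members did not pass the test. The taurine carrier SLC6A6 had a log2 difference of −0.15 (adjusted p = 0.444).

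**Figure D2:**
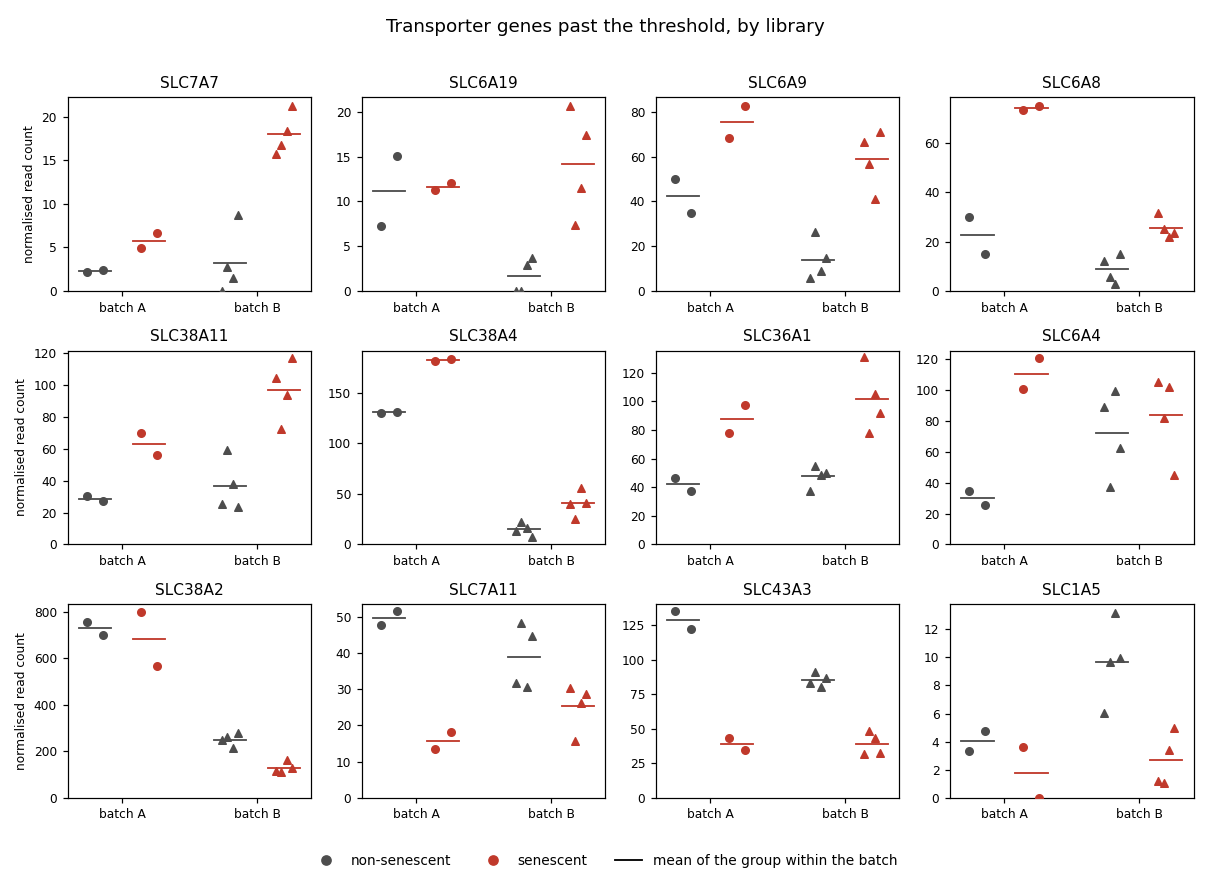
Normalised read counts (linear axes from 0) of the 12 called transporter genes in each of the 12 libraries, with circles for batch A (2 per group), triangles for batch B (4 per group) and a line at the mean of each group within its batch. Senescent libraries of SLC36A1 (77.7 to 131) lie above all non-senescent ones (37.4 to 55.1), while those of SLC6A4 overlap in batch B.

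Of the proton-coupled SLC36 transporters, SLC36A1 rose and SLC36A4 was slightly lower. SLC36A1 (chr5:151437046-151492379, plus strand), which carries small neutral amino acids out of lysosomes and into cells, had 46.7 and 37.4 normalised read counts in non-senescent libraries of batch A and 37.6, 55.1, 48.2 and 49.7 in batch B. Senescent libraries had 77.7 and 97.2 in batch A and 131, 77.7, 105 and 92.2 in batch B. This was a complete separation in each batch, with nearly equal log2 fold changes of 1.04 and 1.06 (overall 1.05, SE 0.16, adjusted p = 5.32e-05). SLC36A4 changed by −0.31 (SE 0.10, adjusted p = 0.0226), a 1.24-fold fall, with overlapping groups in batch B.

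Among the SLC38 carriers of systems A and N, which take up glutamine, alanine and related neutral amino acids, SLC38A4 rose and SLC38A2 fell. SLC38A4 (chr12:46764761-46832408, minus strand) had 130.1 and 131 normalised read counts in non-senescent and 181 and 183 in senescent libraries of batch A. In batch B it had 13.6, 22, 16.1 and 7.45 in non-senescent and 40.0, 25.2, 56.1 and 41.1 in senescent libraries. The groups did not overlap in either batch, but the batches differed more than the groups, and values of batch A were several times those of batch B. Over both batches SLC38A4 rose by 1.12 on the log2 scale (SE 0.26, adjusted p = 0.00233). The change was 0.48 within batch A, which is below the 1.5-fold limit, and 1.43 within batch B. These 2 changes did not differ by the interaction test (adjusted p = 0.398). SLC38A3, the system N transporter SNAT3, had a log2 difference of −0.11 (adjusted p = 0.768).

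SLC38A11 (chr2:164894354-164955525, minus strand), a less studied member of the family, had 30.6 and 27.0 normalised read counts in non-senescent libraries of batch A and 25.6, 59.2, 38 and 23.6 in batch B. Senescent libraries had 70.0 and 56.2 in batch A and 104, 72.4, 93.9 and 117 in batch B. Within each batch all senescent libraries were higher, and the rise was 2.52-fold (log2 fold change 1.34, SE 0.21, adjusted p = 9.71e-05; 1.10 in A and 1.45 in B). SLC38A10 changed by 0.35 (SE 0.12, adjusted p = 0.0307), under the fold limit. SLC38A9, the lysosomal transporter that reports arginine to mTORC1, had a log2 difference of 0.12 (adjusted p = 0.692).

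In the SLC43 family, SLC43A3 fell and its 2 relatives that carry large neutral amino acids did not pass both limits. SLC43A3 (chr11:57406954-57427580, minus strand), a carrier of purine nucleobases, had 135 and 122 normalised read counts in non-senescent libraries of batch A and 82.8, 90.9, 80.4 and 87.0 in batch B. Senescent libraries had 43.1 and 34.4 in batch A and 31.5, 48.3, 43.5 and 32.4 in batch B. No senescent library of either batch reached the lowest non-senescent one. The fall was 2.51-fold (log2 fold change −1.33, SE 0.16, adjusted p = 5.6e-06; −1.71 in A and −1.13 in B), the lowest adjusted p of the tested members. SLC43A1 (LAT3) changed by 0.53 (SE 0.18, adjusted p = 0.0261), a 1.44-fold rise.

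The direction of change was the same in both batches for 30 of the 40 tested members and for all 12 called ones, beside 9750 of all 13847 tested genes and 3158 of the 3237 called. The shares in the members were thus near those of all genes. For 3 members the response differed between batches (interaction term, adjusted p under 0.1), beside 4.21% of all tested genes. SLC7A9 (chr19:32830509-32869767, minus strand), the cystine and cationic amino acid light chain, had 43.4 and 57.2 normalised read counts in non-senescent and 23.3 and 19.3 in senescent libraries of batch A. In batch B it had 34.6, 23.4, 40.9 and 53.4 in non-senescent and 64.2, 77.7, 46.9 and 52.3 in senescent libraries. Thus it was lower in senescent cells of batch A (−1.19) and higher in those of batch B (0.68), where the groups overlapped, with a difference of 1.87 (SE 0.45, adjusted p = 0.0413).

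SLC43A2 (chr17:1569268-1628886, minus strand), the neutral amino acid transporter LAT4, had 511 and 515 normalised read counts in non-senescent and 356 and 306 in senescent libraries of batch A. In batch B it had 833, 856, 915 and 669.7 in non-senescent and 824, 949, 1040.4 and 938 in senescent libraries. It was lower in batch A (−0.63) and differed by 0.20 in batch B with overlap (difference 0.84, SE 0.18, adjusted p = 0.0218). SLC38A2 (chr12:46358188-46372773, minus strand), the system A transporter SNAT2 that cells induce when amino acids are scarce, had 758 and 701 in non-senescent and 799.5 and 568 in senescent libraries of batch A. In batch B it had 247, 260.2, 213 and 279.5 in non-senescent and 115, 111, 161 and 127 in senescent libraries. The groups overlapped in batch A (−0.11) and were separate in batch B (−0.96), with a difference of −0.85 (SE 0.24, adjusted p = 0.084), and the call over both batches (−0.68, SE 0.15, adjusted p = 0.00159) was lost in batch A alone (adjusted p = 0.628). With only 2 libraries per group in batch A, these interactions depended on single libraries. None of the 3 passed without non-senescent A2, and 1 passed without senescent A1 or without senescent A2.

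**Figure D3:**
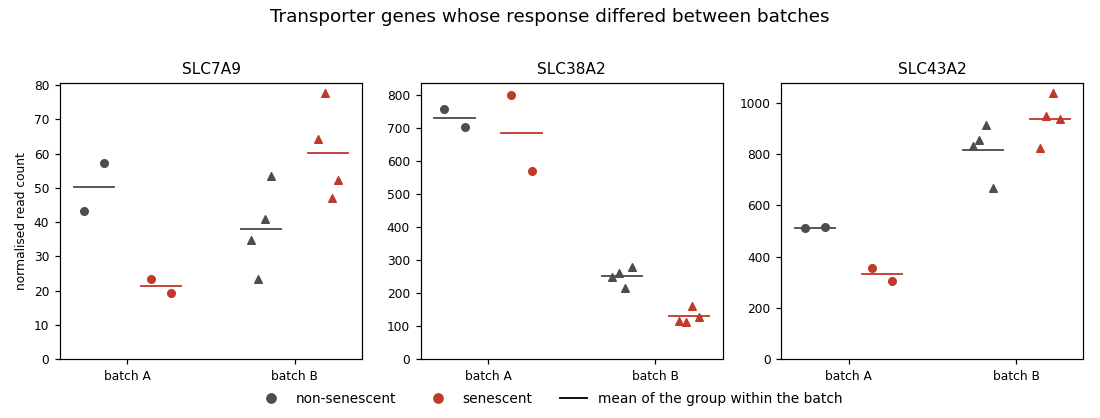
Normalised read counts (linear axes from 0) in each library of the 3 transporter genes whose response differed between batches, with circles for batch A, triangles for batch B and a line at the mean of each group within its batch. SLC7A9 was lower in the senescent libraries of batch A (23.3 and 19.3) and higher on average in those of batch B (46.9 to 77.7).

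**Figure D4:**
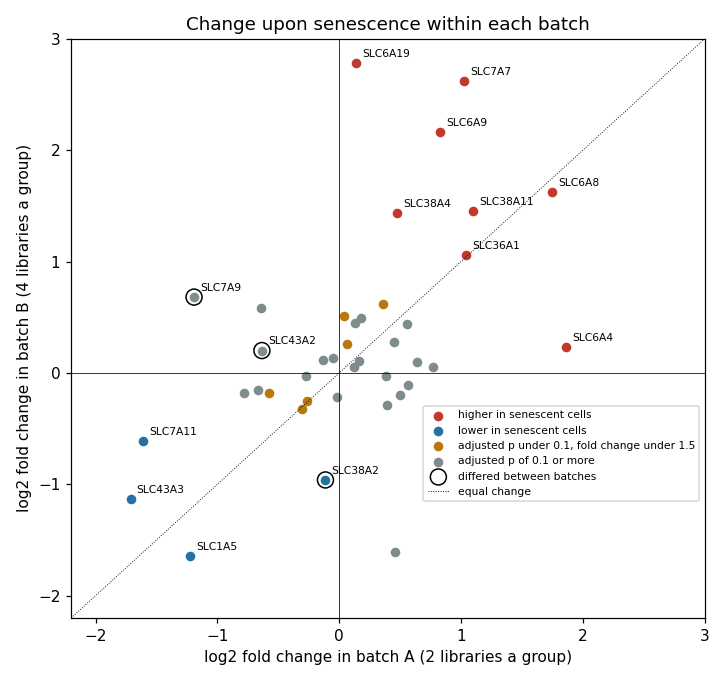
Log2 fold change (senescent against non-senescent) within batch A (x axis, 2 libraries per group) against that within batch B (y axis, 4 libraries per group) for the 40 tested transporter genes, with called genes and the 3 that differed between batches named. The 12 called genes lie to the upper right or lower left of the origin, SLC36A1 close to the line of equal change (1.04 and 1.06) and SLC6A19 far from it (0.14 and 2.78).

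Another 15 members had reads but were below the filter and were not tested. Read totals over the 6 non-senescent and 6 senescent libraries were 8 and 36 for SLC6A18, a neutral amino acid carrier of kidney, 7 and 25 for the proton-coupled SLC36A2, and 48 and 4 for the cationic transporter SLC7A3. Reads of SLC7A3 came mostly from non-senescent cells of batch A, with 22 and 23 reads against 1 and 3 in the senescent libraries of that batch. SLC6A17 held 12 reads in senescent libraries, 8 of them in 1 library, and none in non-senescent ones. When no filter was applied, SLC6A17 and SLC6A18 passed as higher and SLC7A3 as lower, and SLC6A4 no longer passed (adjusted p = 0.108), so that 9 members were called higher and 5 lower. The other 11 members, among them the glutamate transporters SLC1A1 and SLC1A3 and the system A transporter SLC38A1, had between 0 and 33 reads in either group.

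Genes that assist, sense or use the same amino acids were examined beside the transporters. Of 10 partners and regulators, 7 were tested, with 1 higher and 2 lower (42.9% called, beside 23.4% of all tested genes; median −0.01, beside 0.01). STX1A, a SNARE protein of insulin granule release that also binds neurotransmitter carriers of the SLC6 family, rose from 961 ± 208 to 1803 ± 212 (SD, n = 6 each; log2 fold change 0.93, SE 0.07, adjusted p = 3.27e-08). NEDD4, a ubiquitin ligase, changed by −0.74 (adjusted p = 0.00379), and CD44, a surface glycoprotein that stabilizes SLC7A11, changed by −0.74 (adjusted p = 0.0367). Of 8 other SLC genes that carry amino acids in vesicles, lysosomes or at the surface, 5 were tested and none was called by limma, edgeR or DESeq2 (median 0.03), and SLC16A10 alone had an adjusted p under the limit (0.31 on the log2 scale, adjusted p = 0.00538).

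Of 33 genes of amino acid sensing upstream of mTORC1, 31 were tested, with 5 higher and 1 lower (median −0.03). The called share of 19.4% was below the 23.4% of all tested genes, so the calls do not set this list apart. SESN1, a sestrin that restrains mTORC1 and is a known p53 target, rose from 30.5 ± 7.82 to 96.5 ± 23.1 (SD, n = 6 each; log2 fold change 1.63, SE 0.21, adjusted p = 7.33e-06). SESN3, of the same family, changed by 1.07 (adjusted p = 0.000252), by 0.28 within batch A and 1.46 within batch B, which differed (interaction adjusted p = 0.0443). RRAGB, a Rag GTPase, changed by 0.71 and WDR59, of the GATOR2 complex, by 0.61 (adjusted p = 0.00431 and 3.86e-06). KPTN, of the complex that holds GATOR1 at lysosomes, fell by 0.94 (adjusted p = 9.55e-06). The fifth called rise was SESN2 (0.61). Sestrins are inhibitors of the pathway, whereas RRAGB and WDR59 belong to its activating arm.

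Of 18 genes of the response to amino acid shortage through GCN2 and ATF4, all 18 were tested and 2 were called (median 0.08), which is 11.1%, beside 23.4% of all tested genes. PPP1R15A, a phosphatase subunit that restores translation, changed by 0.65 (SE 0.14, adjusted p = 0.00149), and EIF2S1, the initiation factor that GCN2 phosphorylates, by −0.67 (SE 0.11, adjusted p = 7.21e-05). ATF4 itself had 1329 ± 898 and 1446 ± 1179 (SD, n = 6 each; log2 difference −0.00218, adjusted p = 0.987). Of 30 enzymes that use the carried amino acids, 24 were tested, with 4 higher and 2 lower (25.0% called, median 0.10). ABAT, which degrades GABA, rose from 135 ± 39.0 to 529 ± 53.5 (SD, n = 6 each; log2 fold change 2.00, SE 0.12, adjusted p = 6.46e-10). BCKDHB, for breakdown of branched-chain amino acids, changed by 0.79, GAD1, which makes GABA, by 0.62, and CSAD, of taurine synthesis, by 0.60 (adjusted p = 1.73e-06, 0.0286 and 0.00281). GOT1, the cytosolic aspartate aminotransferase, changed by −0.81 (adjusted p = 3.58e-05). CKB, a creatine kinase, changed by −0.66 (adjusted p = 0.000396). Batch A showed −0.03 and batch B −0.98, which differed (interaction adjusted p = 0.000284), while the creatine carrier SLC6A8 rose in both batches.

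**Figure D5:**
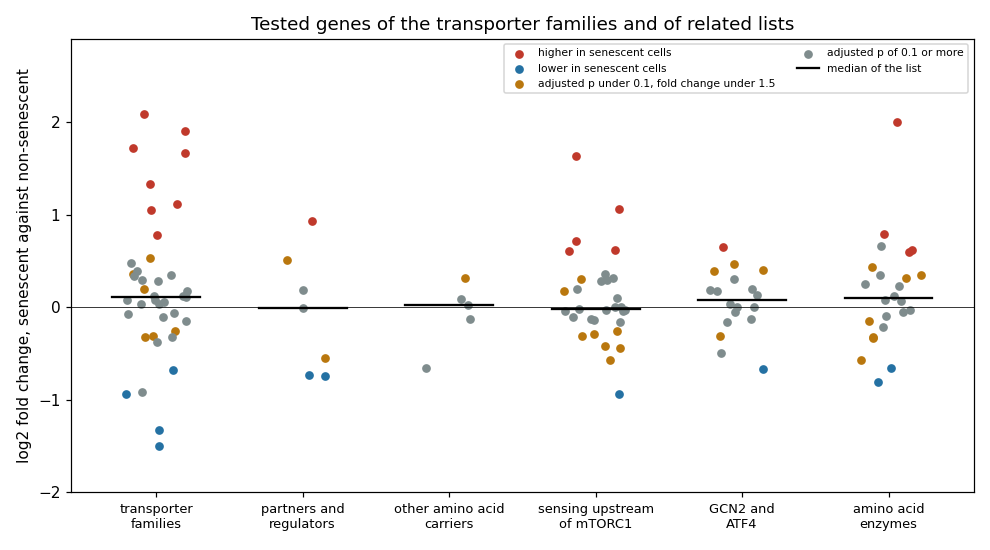
Log2 fold change (senescent against non-senescent) of each tested gene of the transporter families and of 5 related lists, with a line at the median of each list; the horizontal spread of points has no meaning. Medians lie between −0.03 and 0.11, and the widest changes are those of SLC7A7 (2.09) and ABAT (2.00).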

How the data were processed

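The 12 libraries were made with a CEL-Seq protocol. By the methods and labels, the authors used Cutadapt to trim reads, Salmon 0.13.1 with GRCh38 to quantify genes, and DESeq2 to normalise and compare groups. The transcript annotation and the treatment of molecular identifiers are not given in the sources used here. The deposited columns hold a signal: numbers of reads for each gene over the size factor of its library (normalised read counts). The authors' own columns of fold changes, their errors, test statistics and p-values were not used. Every non-zero value was a whole multiple (tolerance 0.01) of the smallest in its column (100% of 196021), so reads were recovered. Totals were 4672924 to 17106776 per library, and floors cover counting error only. Columns without a known sample numbered 0.

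Groups and batch letters came from sample titles. The labels name no separate cultures, so p-values measure only the spread between these samples, which may be technical. Samples with the same replicate number did not deviate together (correlations of deviations from the group mean −0.05 to 0.02), so the numbers were not taken as pairs. Groups were compared with limma 3.58.1 (R 4.3.3, intensity trend) on log2(normalised read count + 1), with batch and group as terms, for genes with a mean of at least 5. p-values were adjusted over all 13847 tested genes, and within-batch and interaction effects came from the same values. SDs given for 6 libraries span both batches and include any difference between them, whereas the SE came from the model with batch. Alternatives varied the pseudocount (0.5 and 8), filter (none and 20), scaling, batch term, a replicate block, single batches, single libraries, the adjusted p limit and the tool (edgeR 4.0.16 and DESeq2 1.42.0 on recovered reads). The procedure was tested on simulated counts with the same spread between replicates for all genes. Changes were planted only in genes with a mean of at least 20, so low genes such as SLC7A7, SLC6A19 and SLC1A5 were not covered.

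Transporters and related lists were chosen with earlier results of these data known. Values per library were given for called members with a mean of at least 20 whose groups did not overlap within either batch, for members that differed between batches, and for a few others (SLC7A7, SLC6A19, SLC6A4, SLC1A5, SLC3A2, SLC7A1 and low genes) after their values were seen. Other members named were those called, those with an adjusted p under 0.1 alone, both SLC3 genes and, after their values were seen, examples of each class. Of the related lists, up to 4 called genes per direction were named, and ATF4, SLC7A6OS and CLTRN besides. Some genes that enter the counts are not reported here singly. List genes whose symbols did not match were not used here. Positions came from GENCODE 44.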

Additional observations from a re-analysis of the deposited data

Results flagged for a closer look

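The 6 libraries of each group, with both batches together, were tested for 1 far from the others in each called member (24 groups). Only 1 was found. Were all 6 libraries alike, chance alone would mark about 1 in 20 groups. Differences between batches can hide a library that is far off within its batch, so the number found says little. SLC7A7 in the non-senescent library B4 had 8.70 normalised read counts (7 reads) beside 0 to 2.75 in the other non-senescent libraries. Without that library its log2 fold change was 2.38 (adjusted p = 0.000962, limma).

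For 3 members the change upon senescence differed between batches by the interaction test. The difference, batch B minus batch A, was 1.87 for SLC7A9, −0.85 for SLC38A2 and 0.84 for SLC43A2 on the log2 scale. What set the batches apart was not tested.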

How the results depend on the processing

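Of the 12 called members, 11 kept their call with each single library left out, the exception being SLC6A4. A set of 6 kept it with every library left out and under every alternative in which they were tested. Of these 6, SLC7A7 was not tested with a mean of at least 20. All 12 were called by edgeR, by DESeq2 and under the replicate block, and the counts of 8 higher and 4 lower members were then the same as in the main test. With single libraries left out, 7 to 9 members were higher and 4 to 5 lower. Higher and lower counts were 6 and 3 without the batch term, 6 and 5 in batch A alone, 7 and 3 in batch B alone, 6 and 3 with a mean of at least 20 (which leaves out SLC7A7, SLC6A19 and SLC1A5), and 9 and 5 without a filter. Scaling each library to the same total moved the median of all tested genes from 0.01 to −0.09 and its calls from 1605 higher and 1632 lower to 1226 and 2090, with 8 and 4 members still called. The cause of each change below was not tested.

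The 3 members that differed between batches became 1 under the replicate block and 0 to 3 with single libraries left out. The 3 called partners and regulators became 1 without the batch term. The 2 called genes of the GCN2 and ATF4 list became 1 at the same total, 1 without the batch term, 4 in batch A alone, 0 in batch B alone, and 1 to 2 with single libraries left out. The log2 fold change of SLC7A9, near 0 in the main test, turned to −0.0467 at the same total, −0.0181 with edgeR, −1.19 in batch A alone and as low as −0.14 with single libraries left out (highest 0.26). That of SLC43A2 turned to 0.20 in batch B alone and reached 0.0191 without senescent A2 (lowest −0.17), and that of SLC3A1 turned to 0.46 in batch A alone. SLC38A2, SLC38A4 and SLC6A4 lost their call without the batch term (adjusted p = 0.503, 0.405 and 0.18). Members were measured with a median SE of 0.24, beside 0.16 for all tested genes, so small changes of the low members were not detectable at this depth.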
